A study of Zea mays with 9 samples.

Results

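The transcripts described here are those of maize roots whose level stood apart in seedlings fed free amino acids, while the protein hydrolysate and inorganic nitrogen gave levels near each other. They were chosen on the arrays themselves. Every Aa array had to lie above every array of the other treatments, or below them all, and the Aa mean had to differ from both other means by at least 1 on the log2 scale, which is a 2-fold difference. In addition the means of Bio and N had to lie within 1 of each other, and a transcript higher in Aa had to be well above background on the 3 Aa arrays. A transcript lower in Aa had to be so on the 3 N arrays and on at least 2 Bio arrays. Of the 39372 transcripts on the array, 85 met this rule, 39 higher in Aa (0.0991%) and 46 lower (0.117%). By its steps, 0.124% were higher and 0.254% lower in Aa without overlap and by 2-fold, and 0.107 and 0.236% also had Bio within 1 of N. The same rule turned round gave 58 transcripts that stood apart in Bio (47 higher, 11 lower) and 293 that stood apart in N (214 higher, 79 lower). Since the rule used every comparison among the treatments, the values below describe the chosen transcripts and no test is given for them.

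The plants were seedlings of the hybrid P0423, 4 days old, and all grew in the same diluted nutrient solution, which held iron as Fe-EDTA. N seedlings received ammonium phosphate, Aa seedlings a mix of free amino acids composed like those in the hydrolysate, and Bio seedlings the hydrolysate itself at 0.1 ml per litre, a product of animal connective tissue that holds mostly small peptides. Total nitrogen was 11.3 mg per litre in each treatment, which lasted 3 days, and each of the 3 replicates per treatment was RNA from the pooled roots of 24 seedlings on 1 one-colour array. The probes were designed on the inbred line B73, not on the hybrid, and whole roots were taken, so that fewer cells of a type and less RNA per cell cannot be told apart. A level is the log2 intensity of a spot minus that of its array's 75th percentile (617.1 to 962.1 intensity units), so that 0 equals the percentile. The scanner software set 27019 to 32309 transcripts of an array well above background. N, Aa and Bio took the same places on all 3 slides, and place and treatment cannot be told apart. Of the 6 root marker transcripts (Casparian strip and root hair genes among them), 4 to 6 were well above background on each array. With limma, 0% of the transcripts with a fit were called in Aa vs. N, Bio vs. Aa or Bio vs. N with a 2-fold difference and p no higher than 0.01 after Benjamini-Hochberg adjustment, and 7.35, 4.91 and 7.05% had an unadjusted p below 0.05.

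Roots take up amino acids through carriers in the plasma membrane that are driven by the proton gradient, and can use them as building blocks, break them down or read them as signals. Methionine has a further use in grass roots. Its activated form is the raw material of nicotianamine and of the phytosiderophores, which roots of grasses release to bind iron, and methylthioadenosine that is left over is turned back into methionine by the salvage cycle. The cycle releases formate, which formate dehydrogenase oxidises.

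The members differed widely in how clearly Aa stood apart. For the 39 higher ones the distance of the Aa mean from the nearer of the other means ran from 1.01 to 2.5, with a median of 1.31. For the 46 lower ones it ran from -2.26 to -1.0, with a median of -1.22. The arrays themselves came much closer to each other than the means: the gap between the closest Aa array and the closest other array had a median of 0.28 in the higher and 0.21 in the lower members, and it reached 1 for 1 higher member and for 0 lower ones. With another background correction, normexp, the Aa mean no longer lay above both other means for 12 named transcripts, all of them dim and all on the higher side, and each is pointed out where it is described. A further 20 of the 45 named transcripts kept their direction with it but shrank by over 1.5 times, each to a distance below 1 in size. Over all transcripts, every Aa array lay above all others for 435 (1.1%) and below all others for 684 (1.74%).

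The same Bio array recurred in these close calls. Bio replicate 3 was the array nearest to Aa for 28 of the 39 higher and 24 of the 46 lower members. Among the higher members its median distance from the N mean was 0.72, against 0.06 and -0.01 for Bio replicates 1 and 2 and 1.40 to 1.95 for the Aa arrays. Among the lower members the Bio replicate 3 median was -0.49, with 0.38 for Bio replicate 1. Bio replicate 3 was the highest Bio array for 31 of the 39 higher members and for 35% of all transcripts, and the lowest for 32 of the 46 lower members and for 29.8% of all. The label "Aa alone" thus holds for the treatment means and for Bio replicates 1 and 2 more than for Bio replicate 3. Without Bio replicate 3 the rule took 213 higher transcripts, 36 of the 39 among them, and 104 lower ones, 40 of the 46 among them.

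**Figure D1:**
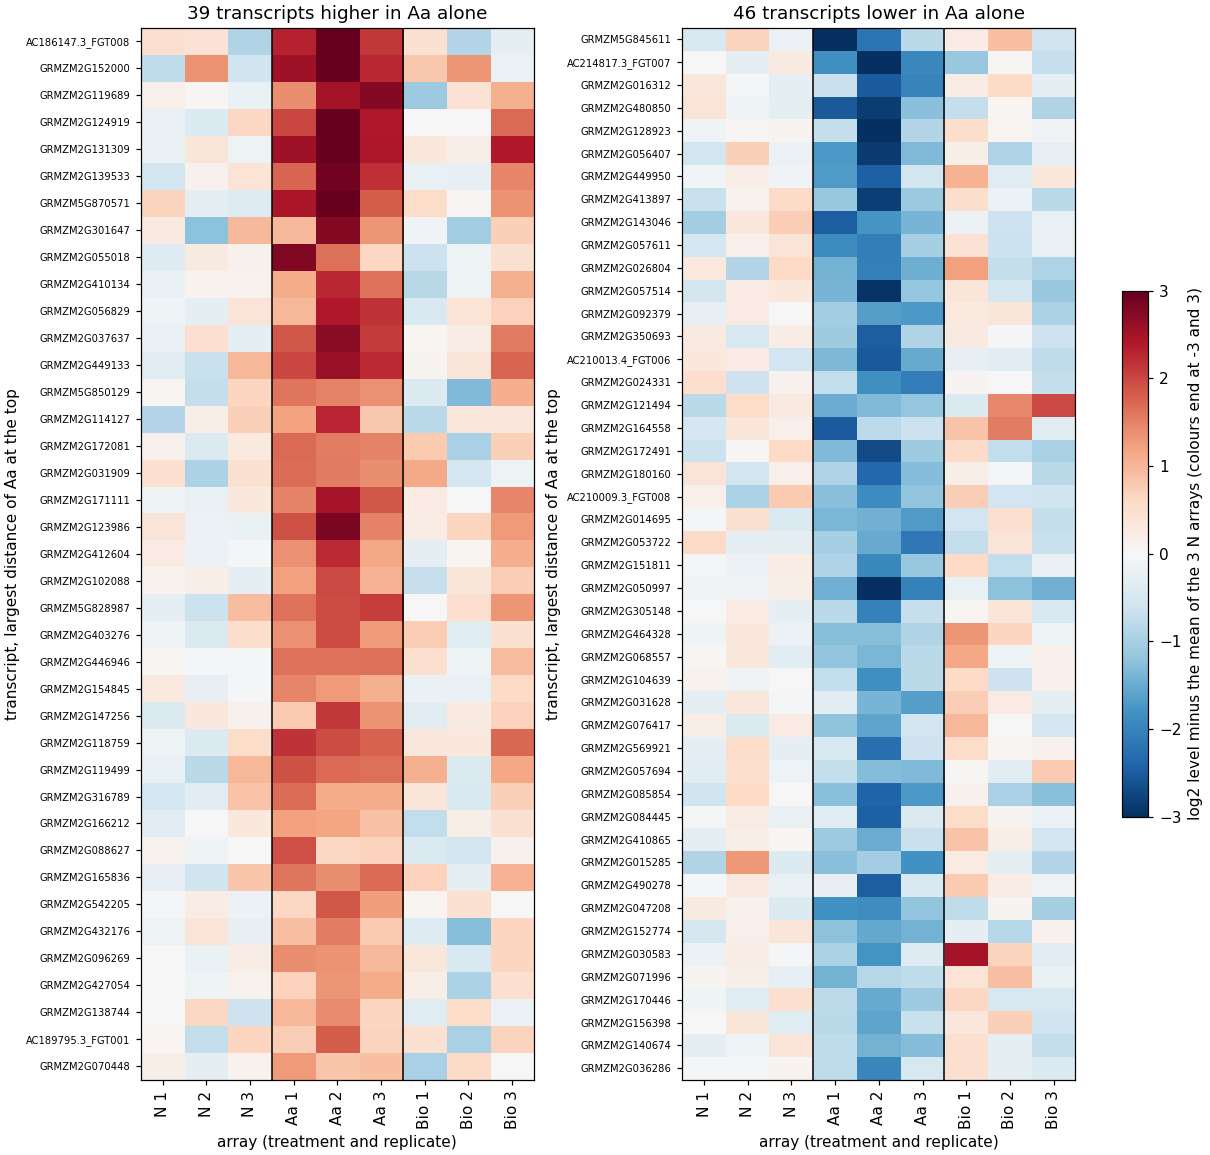
Level of each member on each of the 9 arrays as the difference from the mean of the 3 N arrays (log2, colour scale ending at -3 and 3), with 39 higher members on the left and 46 lower members on the right, ordered by distance. Aa 2 is the strongest column on both sides, and Bio 3 takes a paler form of the Aa colours in many rows.

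Aa replicate 2 lay farthest out. It was the highest Aa array for 23 of the 39 higher members and the lowest for 33 of the 46 lower ones, and over all transcripts it was the highest Aa array for 31.4% and the lowest for 31.7%. Among the lower members its median distance from the N mean was -1.91 against -1.19 and -1.15 on Aa replicates 1 and 3. Compared within a slide, Aa differed by at least 1 from both N and Bio for 29, 36 and 5 of the higher members on slides 1, 2 and 3, and for 18, 42 and 10 of the lower ones. On every slide it did so for 4 higher and 2 lower members. Without Aa replicate 2 the rule took 58 higher and 24 lower transcripts, with 31 and 21 of the original ones.

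**Figure D2:**
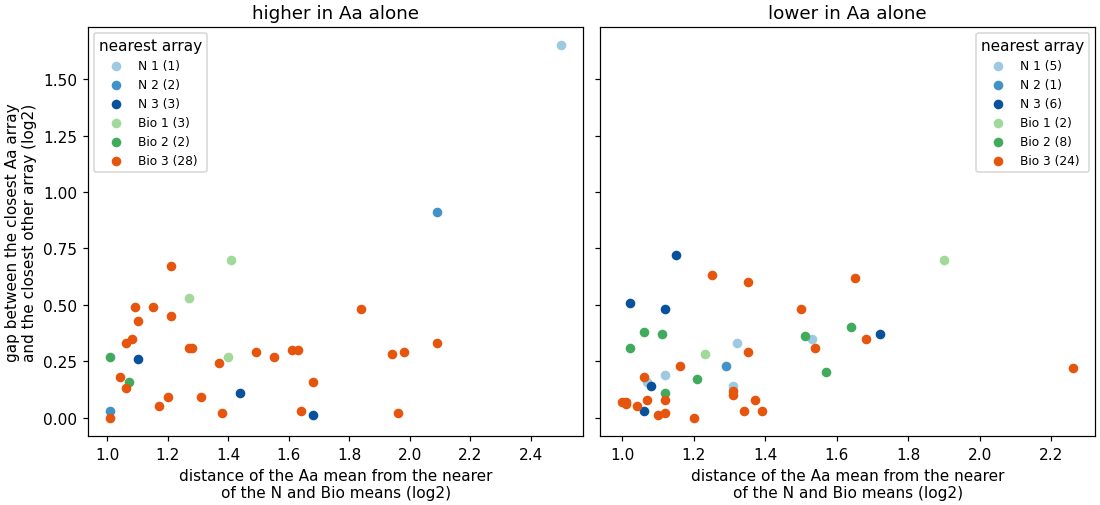
Gap between the closest Aa array and the closest other array (vertical axis, log2) against the distance of the Aa mean from the nearer other mean (horizontal axis, log2) for each member, coloured by which array was nearest. Most points lie below 0.5 on the vertical axis and most carry the colour of Bio replicate 3.

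Among the transcripts higher in Aa, the brightest group belonged to methionine salvage and formate. The transcript IDI2 (GRMZM2G139533_T01), which the gene table also names M1Pi and which is known from barley as an iron deficiency-induced gene of the salvage cycle, had levels of 0.95, 2.09 and 1.39 on Aa replicates 1 to 3. On the N arrays it lay at -1.34, -0.67 and -0.39, and on the Bio arrays at -1.02, -1.04 and 0.67. Every Aa array was thus above the others, with Bio replicate 3 only 0.28 below the lowest of them, and the means corresponded to 4.84-fold over N and 3.83-fold over Bio. On this transcript 3 of the 9 spots, 2 of them in Aa, were marked as outliers by the scanner software.

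The transcript for MTA/SAH nucleosidase (GRMZM2G171111_T01), the enzyme that opens the salvage of methylthioadenosine, was among the brightest members, at 5.06, 6.06 and 5.45 in Aa. It measured 3.46, 3.39 and 3.90 in N and 3.82, 3.58 and 5.04 in Bio. Bio replicate 3 all but touched Aa replicate 1 here, while the other Bio arrays lay with N, and the mean in Aa was 3.83-fold that in N and 2.6-fold that in Bio. The formate dehydrogenase transcript GRMZM2G124919_T01 followed the same course, with 4.54, 5.80 and 4.96 in Aa, 2.34, 2.14 and 3.16 in N and 2.55, 2.56 and 4.25 in Bio. Its Aa mean was 5.89-fold that in N and 3.95-fold that in Bio, and its groups were separated by 0.29 at the closest point.

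Other transcripts of the same steps, looked up after the values of these were seen, had similar means but overlapping arrays. Methylthioribose kinase 1 (GRMZM2G464137_T01) lay at 2.48, 3.66 and 3.66 in Aa, 1.01, 1.40 and 1.66 in N and 0.69, 1.60 and 3.14 in Bio. The transcript described as the dehydratase and phosphatase of methylthioribulose phosphate (GRMZM2G574782_T01) measured 1.30, 2.18 and 2.15 in Aa, 0.53, 0.70 and 1.07 in N and 0.37, 0.16 and 1.73 in Bio. In both, Bio replicate 3 exceeded Aa replicate 1, which kept them out of the chosen set. The same held for the formate dehydrogenases GRMZM2G049811_T01 (means of 2.81 in N, 5.07 in Aa and 3.32 in Bio) and GRMZM2G418005_T01 (4.63, 6.88 and 5.14), whereas a mitochondrial one, GRMZM2G170602_T01, was not well above background on any array. The gene lists used here and below were looked up among RefSeq symbols and the descriptions of the study, which exist only for 1687 transcripts selected on these arrays. A list is therefore not a whole family, and its median can differ through that selection from the -0.01 (Aa vs. N) and 0.03 (Bio vs. N) of all transcripts. Its count of members can likewise differ from the 0.0991% (higher) and 0.117% (lower) of all transcripts. Of the 16 transcripts found for the nicotianamine and phytosiderophore pathway, 11 had such a description, 13 had their highest mean in Aa and 0 were members. Over all transcripts the mean was highest in Aa for 11127 of 39372. The median difference of the 16 was 3.03 in Aa vs. N and 1.49 in Bio vs. N. The uptake carrier yellow stripe 1 (GRMZM2G156599_T01) was the 1 of the 16 with every Aa array on top, at 4.54, 5.80 and 4.95, but its Bio mean of 3.16 was more than 1 above the N mean of 1.99.

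**Figure D3:**
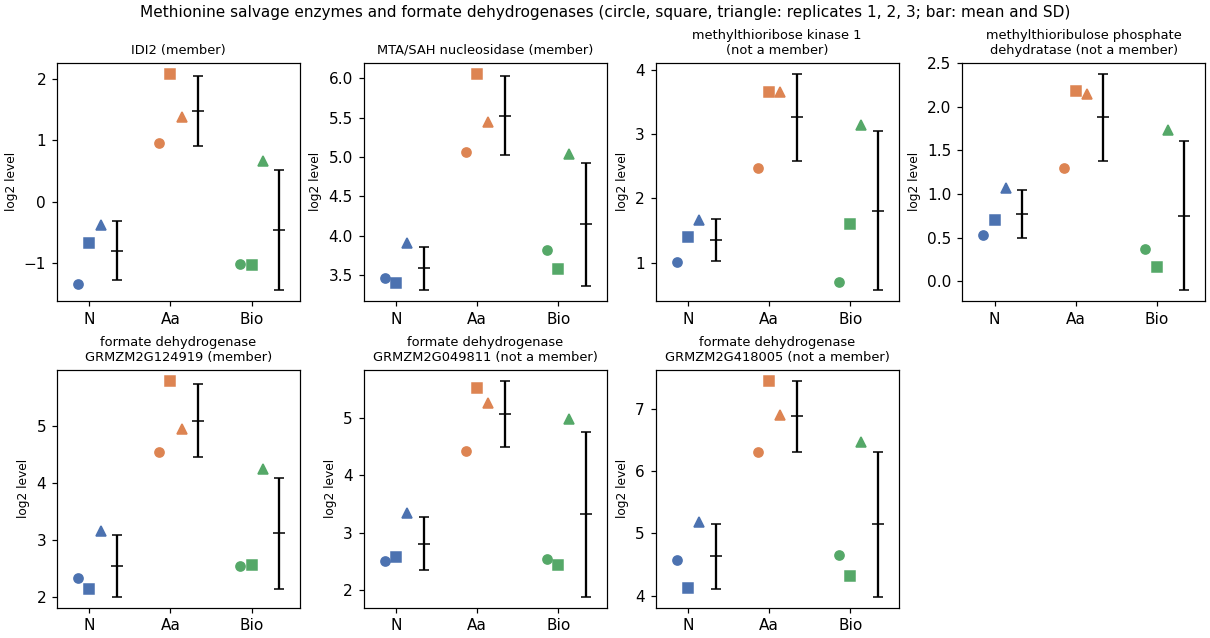
Log2 level on each array (vertical axes) for the 4 methionine salvage transcripts and for 3 of the formate dehydrogenases in N, Aa and Bio, with replicates 1, 2 and 3 as circle, square and triangle and the mean with its SD as a bar (n = 3). In every panel Aa has the highest mean and the triangle of Bio lies well above its other points.

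Enzymes that act on amino acids were also among the higher members. The lookup for amino acid breakdown found 2 transcripts, both through the descriptions of the study and so selected on these arrays, and both were members (0.0991% of all transcripts were). They are described as L-allo-threonine aldolase, which splits threonine into glycine and acetaldehyde. GRMZM2G412604_T01 had levels of -1.63, -0.78 and -1.84 in Aa, -2.77, -3.18 and -3.08 in N and -3.30, -2.95 and -1.93 in Bio. GRMZM2G147256_T01 had -3.13, -1.80 and -2.58 in Aa, -4.35, -3.61 and -3.79 in N and -4.25, -3.65 and -3.22 in Bio. The direction of GRMZM2G147256_T01 turned with normexp. In both the lowest Aa array cleared Bio replicate 3 by only 0.09, and the Aa means were 3.02-fold and 2.67-fold those of N. Aminoacylase-1 (GRMZM2G088627_T01), which frees amino acids from their acylated form, was dimmer, with a mean of -4.75 ± 0.74 (SD, n = 3) in Aa, -5.84 ± 0.12 in N and -6.12 ± 0.37 in Bio.

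The transcript of a plasma membrane ATPase (GRMZM2G131309_T01), a proton pump of the kind that energises uptake, had the largest difference from N of all members. It lay at -1.96, -0.64 and -2.08 in Aa, against -4.69, -4.14 and -4.66 in N and -4.17, -4.29 and -2.10 in Bio. The Aa mean was 7.64-fold that in N and 3.88-fold that in Bio. Bio replicate 3 nevertheless came within 0.02 of the lowest Aa array, and the distance of 1.96 was 0.74 with normexp.

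Transcripts for sugar and cell wall enzymes made up 5 of the higher members. The largest distance of all belonged to AC186147.3_FGT008, described as an alpha-6-galactosyltransferase, at -4.82, -4.04 and -5.0 in Aa. It was well above background on no N and no Bio array, so it was at least 3.43-fold higher than in N and at least 2.18-fold higher than in Bio, taking for a dim array the lowest signal well above background or the probe's own, whichever was higher. It was also the 1 higher member whose closest arrays were more than 1 apart, at 1.65. Cell wall invertase 2 (GRMZM2G119689_T01), the product of mn1 that splits sucrose outside the cell and is known from the maize kernel, measured -4.12, -3.0 and -2.75 in Aa, -5.36, -5.45 and -5.71 in N and -6.60, -5.07 and -4.45 in Bio. Its arrays did not overlap, and its Aa mean was 4.65-fold that in N and 4.24-fold that in Bio. The directions of both this transcript and AC186147.3_FGT008 turned with normexp.

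The study describes GRMZM5G870571_T01 both as a galactoside fucosyltransferase, of a family that adds fucose to wall polysaccharides, and as uncharacterized, so its role is uncertain. This transcript lay at 1.83, 2.59 and 1.21 in Aa, 0.04, -0.89 and -1.0 in N and -0.07, -0.57 and 0.73 in Bio. Its Aa mean was 5.61-fold that in N and 3.58-fold that in Bio, with no overlap. The transcript for glycine-rich cell wall structural protein 2 (GRMZM2G118759_T01) was brighter, with means of 3.65 ± 0.20 in Aa, 1.68 ± 0.50 in N and 2.48 ± 0.80 in Bio, and Bio replicate 3 came within 0.05 of Aa. A fasciclin-like arabinogalactan protein (GRMZM2G403276_T01), of a family of surface proteoglycans, had means of 0.28 in Aa, -1.26 in N and -0.98 in Bio.

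Of the higher members, 7 belong to conjugation, export and special metabolism, groups that chemically modify or move foreign and home-made compounds. The glutathione transferases gst11 (GRMZM2G119499_T01) and gst12 (GRMZM2G096269_T01), which join glutathione to reactive compounds, are direct neighbours in the gene order of RefSeq. The gst11 transcript lay at -1.05, -1.26 and -1.29 in Aa, -3.15, -3.75 and -1.95 in N and -1.89, -3.38 and -1.79 in Bio. The gst12 transcript lay at -3.61, -3.66 and -4.03 in Aa, -5.02, -5.20 and -4.79 in N and -4.67, -5.45 and -4.36 in Bio. Both kept a narrow spread within Aa, with SDs of 0.13 and 0.23, and since they are neighbouring genes of 1 family a shared signal between their probes was not tested. Among the 32 transcripts that the gene table names as glutathione transferases these were the only members (0.0991% of all transcripts were higher members). The median difference of the 32 in Aa vs. N was -0.14.

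In the same group, a putative epoxide hydrolase (GRMZM2G449133_T01) had means of 0.69 ± 0.29 in Aa, -1.59 ± 0.88 in N and -0.86 ± 0.89 in Bio. A cytochrome P450 (GRMZM2G031909_T01) was well above background on 3 Aa, 1 N and no Bio array, which puts it at least 1.81-fold above Bio, and its direction turned with normexp. Beta-glucosidase 6 (GRMZM5G828987_T01) reached 3.69-fold its N mean and 2.42-fold its Bio mean. The smaller distances in this group were those of an exporter of the DETOXIFICATION family (GRMZM2G154845_T01, 1.21) and of an anthranilate N-benzoyltransferase (GRMZM2G166212_T01, 1.1). Every one of the 7 kept its Aa arrays above the rest, as the rule demands, and only the P450 was not well above background throughout.

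Signalling and growth transcripts formed another 6 of the higher members, most of them dim. Serine threonine kinase 1 (GRMZM2G301647_T01), with a mean of -5.18 in Aa, was well above background on no Bio array and lay at least 1.47-fold above Bio. The protein kinases GRMZM2G172081_T01 and GRMZM2G102088_T01 had Aa means of -4.69 and -4.40. These were the 2 members in the protein kinase list of 29 (0.0991% of all transcripts were higher members). All 29 carried a description of the study and were so selected on these arrays. The distance of GRMZM2G301647_T01 went from 1.68 to 1.07 without N replicate 2, and that of GRMZM2G172081_T01 from 1.41 to 0.83 without Bio replicate 2. All 3 kinases turned in direction with normexp. The study describes GRMZM2G114127_T01 as a leucine-rich repeat protein in its tables but counts it among CLE peptides in its text. This transcript was brighter, at -1.14 ± 0.77 in Aa, -2.58 ± 0.80 in N and -2.62 ± 0.66 in Bio. A CLE peptide precursor (GRMZM2G165836_T01), of a family of short peptide signals in meristems, had levels of -3.31, -3.52 and -3.22 in Aa, -5.17, -5.51 and -4.08 in N and -4.22, -5.19 and -3.87 in Bio. Its Aa arrays lay close together and above the rest. Growth-regulating factor GRF7 (GRMZM5G850129_T01), of a family of transcription factors that promote cell division, had an Aa mean of -5.06 ± 0.12, was well above background on only 1 N and 1 Bio array, and turned in direction with normexp.

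The other described members that were higher in Aa have no common role. Alpha globulin (glb3, GRMZM2G410134_T01), a seed storage protein, lay at -0.82, 0.33 and -0.30 in Aa, -2.12, -1.83 and -1.83 in N and -2.77, -2.07 and -0.85 in Bio. The 5 seed marker transcripts (zeins and oleosins) had summed linear levels of 0.0900 to 0.199 in Aa, 0.0425 to 0.0866 in N and 0.0579 to 0.0937 in Bio, with 1 or 2 of the 5 well above background on any array, and their part in the glb3 values was not tested. A polyadenylate-binding protein (GRMZM2G055018_T01), which binds the tail of mRNA, lay at -2.36, -3.5 and -4.53 in Aa, -5.54, -4.88 and -5.02 in N and -5.78, -5.3 and -4.69 in Bio. Its Aa arrays were spread widely, the lowest came within 0.16 of Bio replicate 3, and the Aa mean was 3.21-fold that in N and 3.46-fold that in Bio, a direction that turned with normexp. The remainder were a Pollenless3 relative (GRMZM2G123986_T01, distance 1.37), a kinesin-like protein (GRMZM2G432176_T01, at least 1.91-fold above N and 1.15-fold above Bio) and a cyclase-like protein (GRMZM2G138744_T01, distance 1.01), which with an Aa level of 5.48 was among the brightest members.

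A further 9 higher members had no described role. The largest distance among them was that of GRMZM2G152000_T01, at 2.09. It was well above background on the 3 Aa arrays and on no other, and lay at least 2.15-fold above N and at least 1.35-fold above Bio, but turned in direction with normexp. The tightest was GRMZM2G446946_T01, whose Aa levels of -1.11, -1.12 and -1.1 lay above -2.69, -2.78 and -2.78 in N and -2.28, -2.89 and -1.79 in Bio. Just inside the limit of 1 was GRMZM2G070448_T01, with a distance of 1.01, and just outside it a splicing factor 3B subunit (GRMZM2G132060_T01), with 0.99, and both turned with normexp.

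**Figure D4:**
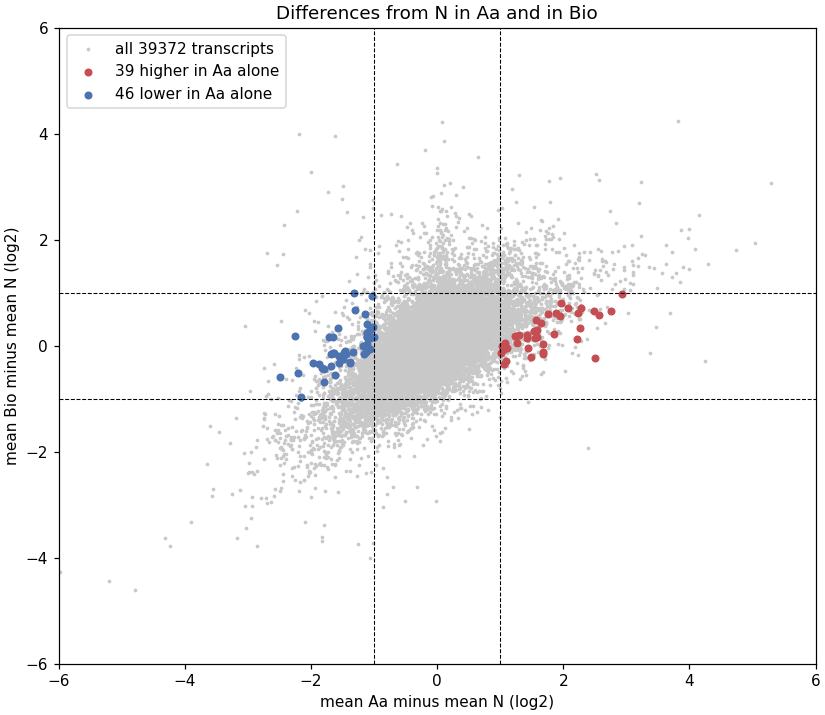
Mean difference from N in Bio (vertical axis, log2) against that in Aa (horizontal axis, log2) for the 39372 transcripts, with the 39 higher members in red and the 46 lower members in blue and dashed lines at -1 and 1. The members sit beyond the vertical lines and between the horizontal ones, as the rule sets, and their Bio differences run from -0.34 to 0.98 for the higher and from -0.96 to 0.99 for the lower.

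Among the transcripts lower in Aa, the largest distance in the values as processed here, -2.26, was that of gpb1 (GRMZM5G845611_T01), a glyceraldehyde-3-phosphate dehydrogenase of the chloroplast that works in carbon fixation. It lay at -6.43, -4.82 and -3.45 in Aa, -3.13, -1.97 and -2.82 in N and -2.39, -1.73 and -3.23 in Bio. The Aa mean was 4.80-fold below that in N and 5.46-fold below that in Bio, with a wide spread within Aa (SD 1.49) and a gap of 0.22 to Bio replicate 3. Only 2 of its Aa arrays were well above background, and the distance was -1.5 without Aa replicate 1 and -0.70 with normexp. CP12-1 (GRMZM2G480850_T01), a small protein that binds this dehydrogenase in the dark, measured -2.73, -3.06 and -1.47 in Aa, 0.18, -0.34 and -0.48 in N and -0.93, -0.16 and -1.12 in Bio. Its Aa mean was 4.61-fold below N and 3.21-fold below Bio, and its distance of -1.68 was -0.97 with normexp.

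The other chloroplast transcripts were dim. PGR5 (GRMZM2G121494_T01), a protein of cyclic electron flow around photosystem I, was well above background on no Aa array and lay at least 1.94-fold below N and at least 3.87-fold below Bio. A plastoquinol-plastocyanin reductase (GRMZM2G164558_T01), part of the cytochrome complex between the photosystems, was likewise well above background on no Aa array, and was at least 1.89-fold below N and at least 3.01-fold below Bio. Its distance of -1.31 was -0.72 without Aa replicate 1.

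Markers of green tissue were also lowest in Aa, and their median difference in Bio vs. N was 1.72. The chloroplast members had differences in Bio vs. N of 0.19 (gpb1), -0.52 (CP12-1), 0.99 (PGR5) and 0.67 (GRMZM2G164558_T01). The rule held these between -1 and 1, so they cannot be set against the marker median. The 17 marker transcripts (chlorophyll a-b binding proteins, the RuBisCO small subunit and photosystem subunits) had summed linear levels of 5.10, 7.25 and 16.0 on the Aa arrays, 9.19, 14.9 and 25.1 on the N arrays and 128, 44.4 and 21.5 on the Bio arrays, in the order of the replicates. Aa was the lowest treatment on each slide, and the ranges of Aa and N overlapped. Of the 17, 9 were detected well above background throughout and 1 nowhere, 0 were members, and 15 had their lowest mean in Aa. Over all transcripts the mean was lowest in Aa for 14073 of 39372. All 17 carried a description of the study and were so selected on these arrays. Their part in the levels of the chloroplast members was not tested.

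Transcription factors supplied 3 of the lower members. Myb36 (GRMZM2G056407_T01) lay at -4.35, -5.48 and -3.94 in Aa, -3.16, -1.91 and -2.79 in N and -2.44, -3.54 and -2.87 in Bio, so that its Aa mean was 3.92-fold below N. MYB100 (GRMZM2G143046_T01) lay at -6.30, -5.59 and -5.22 in Aa, -4.87, -3.51 and -3.10 in N and -4.01, -4.44 and -4.05 in Bio. Neither overlapped, and the closest arrays were 0.40 and 0.35 apart, while with normexp the distances of -1.64 and -1.53 were -0.67 and -0.45. An EIL transcription factor (GRMZM2G151811_T01), of the family that relays the ethylene signal, had means of -2.66 ± 0.53 in Aa, -1.33 ± 0.20 in N and -1.45 ± 0.68 in Bio. The list of transcription factors held 237 transcripts, of which the MYB pair were members (0.117% of all transcripts were lower members). Of the 237, 78 carried a description of the study and were so selected on these arrays. The median difference of the list was -0.02 in Aa vs. N.

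Cytokinin oxidases, which break down the hormone cytokinin, accounted for both members of the hormone list of 26 (0.117% of all transcripts were lower members). All 26 carried a description of the study and were so selected on these arrays. The transcript of cko2 (GRMZM2G050997_T01) lay at -1.68, -3.24 and -2.25 in Aa, -0.33, -0.33 and -0.03 in N and -0.45, -1.45 and -1.68 in Bio. Its Aa mean was 4.48-fold below N and 2.30-fold below Bio, but Bio replicates 2 and 3 were also well below N, and the gap between Bio replicate 3 and Aa replicate 1 was 0.00 after rounding. Its distance of -1.2 was -0.77 without Aa replicate 2. The study describes GRMZM2G170446_T01 as cytokinin oxidase 3. It also gives that description to GRMZM2G702564_T01, which the lookup used here did not find. RefSeq gives the name cko3 to GRMZM2G167220_T01, which was well above background on no array. GRMZM2G170446_T01 measured -0.82, -1.54 and -1.13 in Aa, -0.15, -0.39 and 0.45 in N and 0.58, -0.51 and -0.50 in Bio. Its distance of -1.02 was -0.66 without Bio replicate 1. Over the 11 cytokinin oxidases found on the array the median difference in Aa vs. N was 0.07, and the other 9 were no members.

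Special metabolism supplied 10 of the lower members. BX4 (GRMZM2G172491_T01) is a cytochrome P450 in the synthesis of benzoxazinoids, the chief defence compounds of young maize. It had levels of -1.94, -3.32 and -1.69 in Aa, -1.26, -0.58 and -0.04 in N and -0.06, -1.37 and -1.59 in Bio. The closest arrays, Aa and Bio replicates 3, were 0.10 apart, and the distance of -1.31 was -0.81 without Aa replicate 2 and -0.84 without Bio replicate 1. Other steps of the same path were looked up after these values were seen. The transcript of bx2 (GRMZM2G085661_T01) had means of 0.62 in Aa, 2.86 in N and 2.45 in Bio, BX3 (GRMZM2G167549_T01) of 4.39, 5.53 and 5.41, and BX5 (GRMZM2G063756_T01) of -0.40, 1.58 and 1.25. In all of them Aa replicate 2 was the lowest array and at least 1 Bio array overlapped with Aa, so they were no members. The other transcripts of the 10 in the list did not share this course. A methyltransferase of the path, BX10c (GRMZM2G106172_T01), had its highest mean in Aa, at 4.70 against 2.96 in N and 3.24 in Bio, and bx9 (GRMZM2G161335_T01) lay at 2.56, 2.73 and 1.91. BX10b (GRMZM2G093092_T01) and BX14 (GRMZM2G127418_T01) had Aa means 0.03 and 0.00 from those of Bio, bx8 (GRMZM2G085054_T01) differed by -0.46 from N and -0.21 from Bio, and bx1 was not well above background on any array. The median of the 10 was -1.19 in Aa vs. N and -0.20 in Aa vs. Bio. A glycosyltransferase (GRMZM2G085854_T01), 7 genes away from BX4 in the gene order of RefSeq, was itself a member, with -1.83, -2.97 and -2.30 in Aa, -1.17, 0.02 and -0.58 in N and -0.44, -1.54 and -1.82 in Bio. It came within 0.01 of Bio replicate 3, and its distance of -1.1 was -0.69 without Bio replicate 1.

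**Figure D5:**
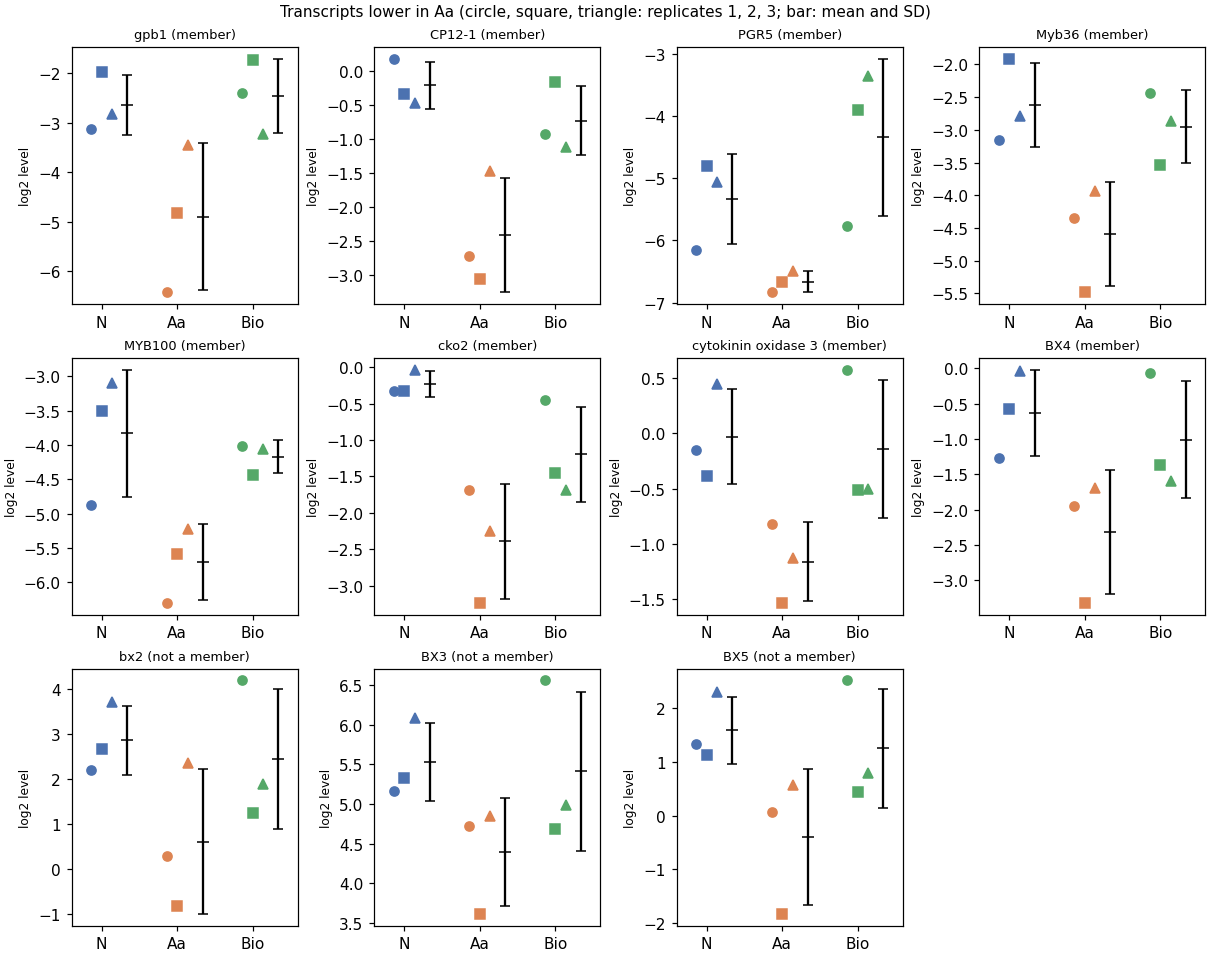
Log2 level on each array (vertical axes) for 8 of the lower members and for bx2, BX3 and BX5 in N, Aa and Bio, with replicates 1, 2 and 3 as circle, square and triangle and the mean with its SD as a bar (n = 3). The 8 members show Aa below every other point, while in the panels of bx2, BX3 and BX5 the points of Aa and Bio overlap.

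The list of cytochrome P450 enzymes held 40 transcripts, with 1 higher and 4 lower members, where 0.0991% and 0.117% of all transcripts were members. Of the 40, 28 carried a description of the study and were so selected on these arrays. Besides BX4 the lower ones were GRMZM2G057514_T01 (means of -2.40 in Aa, -0.58 in N and -1.01 in Bio), GRMZM2G024331_T01 (-3.99, -2.44 and -2.65) and CYP86B1 (GRMZM2G057694_T01, -4.21, -3.10 and -2.94), whose relative in Arabidopsis makes suberin monomers. None overlapped, by the rule, and GRMZM2G057514_T01 and GRMZM2G024331_T01 came within 0.03 of Bio replicate 3, and the distance of GRMZM2G057514_T01 was -0.84 without Aa replicate 2. Terpene enzymes were represented by tps26 (GRMZM2G030583_T01), a monoterpene synthase, at -3.48, -4.34 and -2.92 in Aa, -2.72, -2.32 and -2.57 in N and -0.05, -1.87 and -2.87 in Bio. A terpene cyclase (GRMZM2G305148_T01) was dimmer, at a mean of -5.21 in Aa, -4.03 in N and -4.04 in Bio. The spread of tps26 was wide in Bio, where replicate 1 stood far above the rest and replicate 3 within 0.05 of Aa.

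In the same group, carbonyl reductase 3 (AC210013.4_FGT006) measured -0.17, -1.34 and -0.32 in Aa, 1.51, 1.44 and 0.60 in N and 0.94, 0.85 and 0.42 in Bio. Its closest arrays were 0.60 apart, and 4 of its 9 spots, all 3 in N and 1 in Aa, were marked as outliers. A beta-glucosidase (GRMZM2G031628_T01) and a dihydroflavonol-4-reductase (GRMZM2G410865_T01), an enzyme of the flavonoid path, had distances of -1.12 and -1.07.

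Peptide transport, proteases and the wall followed. A putative oligopeptide transporter (GRMZM2G057611_T01) lay at -4.92, -5.11 and -4.04 in Aa, -3.57, -2.89 and -2.64 in N and -2.60, -3.68 and -3.26 in Bio. Its arrays were 0.36 apart at the closest point, and its distance of -1.51 was -0.57 with normexp. It was the only member among the 8 transcripts of the peptide transport list (0.117% of all transcripts were lower members). All 8 carried a description of the study and were so selected on these arrays. Their median difference was -1.19 in Aa vs. N and -0.60 in Bio vs. N. A carboxyl-terminal processing protease (GRMZM2G092379_T01) had means of -3.77 in Aa, -2.3 in N and -2.4 in Bio. A subtilisin-like protease (GRMZM2G076417_T01) was the brightest of the lower members, at 1.72, 1.34 and 2.34 in Aa, 3.11, 2.49 and 3.16 in N and 3.91, 2.94 and 2.42 in Bio. A polygalacturonase (GRMZM2G026804_T01), which cuts pectin, had -0.42, -1.07 and -0.47 in Aa, 1.28, 0.10 and 1.59 in N and 2.21, 0.28 and 0.06 in Bio. It was the only member among 40 transcripts of the cell wall list, against 0.117% of all transcripts that were lower members. Of the 40, 32 carried a description of the study and were so selected on these arrays. The polygalacturonase arrays were 0.48 apart, with 3 marked spots, all outside Aa, and the distance of -1.5 was -0.82 without Bio replicate 1. A CASP-like membrane protein (GRMZM2G104639_T01) had means of -5.22 in Aa, -4.10 in N and -4.06 in Bio.

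Of the other described lower members, drought responsive protein 1 (GRMZM2G014695_T01) was bright, at 0.79, 0.71 and 0.44 in Aa, 2.12, 2.61 and 1.72 in N and 1.60, 2.66 and 1.43 in Bio. Its closest arrays were 0.63 apart, and 3 of its spots outside Aa were marked. The phosphatase PP2C29 (GRMZM2G053722_T01), of the family that removes phosphate in abscisic acid and stress signalling, was well above background on no Aa array and lay at least 2.14-fold below N and at least 1.70-fold below Bio. An early nodulin-like protein (GRMZM2G047208_T01), harpin binding protein 1 (GRMZM2G015285_T01) and an exonuclease (GRMZM2G152774_T01) had distances of -1.06, -1.07 and -1.06.

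A further 17 lower members had no described role. The largest distances were those of AC214817.3_FGT007, matched only to an unnamed rice protein, with means of -5.77 in Aa, -3.27 in N and -3.88 in Bio, and of GRMZM2G016312_T01, with -2.40, -0.68 and -0.51. Neither overlapped, with gaps of 0.70 and 0.37. The member just inside the limit was GRMZM2G036286_T01, with a distance of -1.0, and just outside it, at a distance of 0.999 in size, was a transcript described as a heat shock protein binding protein (GRMZM2G029546_T01).

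The members were a mixed set. Of the higher ones 24 (61.5%) and of the lower ones 32 (69.6%) were well above background on all 9 arrays, against 67.2% of all transcripts. These shares depend on the rule, which asked for signal on some of the arrays. All transcripts also include 5025 that were well above background on no array. Only 11 of the higher members had an Aa mean above the 75th percentile of the array. A marked spot occurred in 12 of the 85, or in 8 higher and 4 lower ones, and in 15.2% of all transcripts. The median SD of their 3 treatments was 0.60 in both directions, against 0.37 over all transcripts. Of the 54 members placed in the gene order of RefSeq, on 9 chromosomes, 3 pairs lay within 10 genes of each other. They were gst11 with gst12, BX4 with the glycosyltransferase, and GRMZM5G870571_T01 with CP12-1, 7 genes apart and in opposite directions.

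Transcripts on 8 of the 16 gene lists supplied no member at all, where 0.0991% (higher) and 0.117% (lower) of all transcripts were members. Besides the nicotianamine list these were class III peroxidases (19 transcripts), nitrate and ammonium uptake and assimilation (5), amino acid transport (6), heat shock proteins and chaperones (9), pathogen defence (23), sugar transport (6) and aquaporins (4). Most transcripts on these lists were found through descriptions given to transcripts selected on these arrays, so that nothing is read from their distance to all transcripts. Nor is anything read from the lack of members in lists this short. The median was 1.72 in Aa vs. N and 0.76 in Bio vs. N for the peroxidases, and -1.34 and -1.46 for pathogen defence. The heat shock list had medians of -1.37 in Aa vs. N and -0.97 in Aa vs. Bio. Of its 9 transcripts, 2 had every Aa array below the rest, as 1.74% of all transcripts did. Amino acid transport had a median of -0.75 in Aa vs. N and 0 transcripts that stood apart without overlap. Over all transcripts 1.1% stood above and 1.74% below without overlap. These comparisons share the Aa or the N arrays, and limma called 0 transcripts of any list in Aa vs. N.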

How the data were processed

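The 9 arrays (1 colour, Cy3) were read, 3 each of N, Aa and Bio, grouped by the sample titles. Per the file headers, the deposited intensity of a spot was background-subtracted and corrected for trends by the authors with Agilent Feature Extraction 10.5.1.1 without scaling between arrays. Deposited intensities that the authors scaled by 1 factor per array were an alternative. The unscaled intensities were converted here to log2 minus the log2 of the 75th percentile of the array, and every spot was kept for the levels, without control spots. Marked spots (5.68%) were missing in limma (version 3.58.1, R 4.3.3), fitted on all 9 arrays and tested on simulated data, with Benjamini-Hochberg adjustment over all transcripts with a fit. Differences near background are not resolved, and the number of arrays limits the precision. The p-values of the main fit measure only the spread between pools of roots together with that of their arrays and slides.

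The members and the gene lists were chosen with earlier results of these data known. Named transcripts were the 15 annotated members with the largest distance in each direction, the 3 with the largest distance whatever their annotation, all members on a list, and those next to the limit. Other members and relatives were named after their values were seen. Descriptions come from the tables of the study, which cover 1687 transcripts, all selected on these arrays, and symbols from RefSeq (assembly Zm-B73-REFERENCE-NAM-5.0), to which 18208 transcripts and 54 of the 85 members were matched. For at least GRMZM5G870571_T01 and GRMZM2G154845_T01 the study lists a decrease in Aa vs. N, where the arrays here showed an increase. Whether each description belongs to the transcript of its row was not tested, so the described roles are uncertain. A t-test, without the permutation p-values and the correction that the study used, was an alternative. The fold changes in the study's tables entered no value given here, and promoter sequences were not analysed.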

Additional observations from a re-analysis of the deposited data

How the results depend on the processing

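The rule took 39 higher and 46 lower transcripts. Under quantile normalization, the percentile over bright probes, the scaled values of the authors and the omission of marked spots it took 39 to 43 and 36 to 46, with 36 to 39 and 34 to 46 of the original ones. With normexp background correction, which moved the median of all transcripts by -0.48 in Aa vs. N and by -0.34 in Bio vs. N, it took 7 and 5, of which 5 and 4 were original ones. With arrays centred on that median, an alternative added after the data were seen, it took 8 and 0, of which 3 and 0 were original ones. Without the condition on background it took 93 lower transcripts, with signal on all 9 arrays 24 higher ones, and with a limit of 1.5 it took 13 and 11. With each array left out in turn the counts ran from 35 to 273 and from 24 to 198, and went past 1.5 times without Aa replicate 1 (273 and 198), Aa replicate 3 (102 and 133) and Bio replicate 3 (213 and 104), and also without Aa replicate 2 (24 lower).

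Among the 45 named transcripts, the distance of Aa kept its direction under every alternative but normexp. There it reversed for 12, relative to the array percentile: AC186147.3_FGT008 (-0.42), GRMZM2G119689_T01 (-0.06), GRMZM2G301647_T01 (-0.37), GRMZM2G055018_T01 (-0.34), GRMZM5G850129_T01 (-0.46), GRMZM2G172081_T01 (-0.44), GRMZM2G031909_T01 (-0.52), GRMZM2G152000_T01 (-0.43), GRMZM2G147256_T01 (-0.06), GRMZM2G102088_T01 (-0.38), GRMZM2G070448_T01 (-0.30) and GRMZM2G132060_T01 (-0.33). After centring, 3 of these stayed reversed, GRMZM5G850129_T01 (-0.03), GRMZM2G172081_T01 (0.00 after rounding) and GRMZM2G031909_T01 (-0.09). A further 20 kept their direction with normexp but shrank by over 1.5 times, to below 1 in size, among them GRMZM2G131309_T01 (0.74), GRMZM5G845611_T01 (-0.70), GRMZM2G480850_T01 (-0.97), GRMZM2G056407_T01 (-0.67), GRMZM2G143046_T01 (-0.45) and GRMZM2G057611_T01 (-0.57). With an array left out, 11 moved by over 1.5 times and 0 reversed. The cause was not tested. Limma called 0 transcripts in each comparison under every alternative, and so did a t-test with pooled variance after Benjamini-Hochberg adjustment. Unadjusted, the t-test gave 225, 57 and 102 in Aa vs. N, Bio vs. Aa and Bio vs. N at the methods' thresholds on p and fold. The study's own permutation p-values and Bonferroni-type correction were not rerun.

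The replicate numbers are also the slides, and each slide held an array of every treatment, so the number is a slide block. The paper describes its replicates as independent runs of the experiment, but the labels do not say that a number marks a run. Same-numbered arrays deviated together with correlations of 0.01 to 0.34, with 0.01 for N and Bio replicate 1. Each of the 9 arrays correlated best with its own number. A shared run and a shared slide cannot be told apart here, so a pairing of the root pools by run is not shown. With the replicate block limma called 0, with 3903, 2954 and 3813 transcripts at an unadjusted p below 0.05 (Aa vs. N, Bio vs. Aa, Bio vs. N), against 2828, 1896 and 2717 without it. The named distances did not change with it, since the design is balanced.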
